A study of Mus musculus with 2 samples.

Results

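Unspliced reads that lie outside every annotated gene were recovered from long-read RNA sequencing of mouse hippocampus, the brain region that holds the dentate gyrus and the CA fields. The loci described here are intergenic loci whose transcript models all consist of 1 exon, that lie off chromosome M, and that have 2 or more reads in each of 2 libraries, matched by overlap on the same strand. There were 210 such loci. The starting set was 2351 unspliced intergenic loci in replicate 1 and 1969 in replicate 2, and each of these loci held 1 model. The libraries listed 133886 and 133393 transcript models with reads in all. Both libraries came from C57BL/6 mice of strain B6NCrl, aged 6 months and labelled male, with the field for sex left without a value. They form 1 group, and neither a treatment nor a second condition is labelled. The labels give them separate biosamples and 1 donor identifier, so the spread between them may be technical. Their totals were 1330153 reads in replicate 1 and 1366252 in replicate 2.

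In long-read sequencing a read is expected to follow a cDNA from its start to its poly(A) end, so an unspliced read marks 1 continuous stretch of transcribed sequence. TALON, the program that made the models, calls a locus intergenic when its reads meet no gene of the annotation in use. Such loci are known to arise where a 3′ untranslated region runs on past the annotated end, where a promoter fires in both directions, where an unannotated noncoding RNA or retrocopy is transcribed, and where the primer binds a genomic run of A. Long 3′ untranslated regions are a known feature of neuronal transcripts. Promoters rich in the dinucleotide CG are known to start transcription in both directions.

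A small group of loci began at the start of a gene on the opposite strand. There were 9 loci whose 5′ end lay within 100 bases of a RefSeq gene start (build GRCm38.p6) on the other strand. The Rprd2 locus among them also began 17 bases from the start of the RefSeq gene Gm29948 on its own strand. The windows of the 4 loci of most reads among those 9 are shown, and they lie wholly or mostly within the loci. Over both libraries the loci at Tbc1d22a, Rab42, Polr3k and Rprd2 had 39, 9, 7 and 7 reads, and the others had 4 to 6. Each window runs 5′ to 3′ along the gene over the 250 bases before its start, from RefSeq. The motif GGGCGG or its reverse complement CCGCCC is in capitals. The Tbc1d22a window is chr15:86214209-86214458 (plus strand), the Rab42 window is chr4:132303357-132303606 (minus strand), the Polr3k window is chr2:181864110-181864359 (plus strand) and the Rprd2 window is chr3:95818954-95819203 (minus strand).
Tbc1d22a: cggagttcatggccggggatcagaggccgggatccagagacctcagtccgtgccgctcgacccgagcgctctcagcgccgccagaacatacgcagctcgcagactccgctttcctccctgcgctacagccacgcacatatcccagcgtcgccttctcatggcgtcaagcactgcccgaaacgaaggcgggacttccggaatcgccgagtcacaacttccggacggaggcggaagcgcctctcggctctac
Rab42: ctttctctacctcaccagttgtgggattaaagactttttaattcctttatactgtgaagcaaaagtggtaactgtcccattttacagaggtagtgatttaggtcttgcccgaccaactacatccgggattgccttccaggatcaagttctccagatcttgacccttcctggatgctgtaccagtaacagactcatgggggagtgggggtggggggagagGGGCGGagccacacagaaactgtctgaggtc
Polr3k: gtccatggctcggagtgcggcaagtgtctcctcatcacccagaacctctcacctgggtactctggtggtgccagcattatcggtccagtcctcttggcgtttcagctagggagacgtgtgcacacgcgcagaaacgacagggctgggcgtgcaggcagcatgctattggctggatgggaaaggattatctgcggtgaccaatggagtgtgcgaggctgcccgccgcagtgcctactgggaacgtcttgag
Rprd2: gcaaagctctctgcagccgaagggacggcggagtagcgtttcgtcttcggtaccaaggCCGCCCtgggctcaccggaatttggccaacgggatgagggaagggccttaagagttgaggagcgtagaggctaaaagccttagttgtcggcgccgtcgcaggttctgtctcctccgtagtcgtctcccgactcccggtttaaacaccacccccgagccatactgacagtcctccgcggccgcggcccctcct
The 9 windows had a median GC content of 62% (49.2% to 72%) and a median of 21 CG dinucleotides (3 to 30), against 52.4% and 6 over the 32851 windows of the RefSeq table. GGGCGG on either strand was present in 7 of the 9, and in 32.7% of all windows. TATAAA on either strand was present in 1 of the 9, that of Rab42, and in 12.4% of all windows. These matches describe the letters only. All windows of the RefSeq table served as background, without matching by gene type, so the contrast cannot be read as a trait of these loci. The motifs and the 100-base limit were chosen after the loci had been seen.

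A second small group began at the last base of an annotated processed pseudogene, a copy of a spliced mRNA inserted into the genome without its own introns. There were 6 such loci, with pseudogene ends taken from GENCODE. In RefSeq, those after Atp6v0c-ps2, Eif4a-ps4, Pgk1-rs7, Gm9836 and Gm11847 lay wholly inside the span of the same pseudogene. Their 3′ ends stood 18, 2, 6, 23 and 3336 bases before its RefSeq end, in that order. For each of the 6 loci, the protein-coding GENCODE transcript that shares most 25-base words with the pseudogene was taken as its parent. The last 45 bases of 3 pseudogenes are printed above the matching bases of the parent, 5′ to 3′, and no base differs in these pairs.
Atp6v0c-ps2: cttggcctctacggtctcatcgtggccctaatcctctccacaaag
Atp6v0c: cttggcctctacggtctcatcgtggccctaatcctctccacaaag
Eif4a-ps4: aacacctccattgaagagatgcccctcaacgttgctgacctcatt
Eif4a1: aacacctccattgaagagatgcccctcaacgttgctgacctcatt
Gm9836: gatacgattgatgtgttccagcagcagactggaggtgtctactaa
Sumo2: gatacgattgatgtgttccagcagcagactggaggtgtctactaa
In all 6 pairs the annotated pseudogene ended within 3 bases of the end of the parent's stop codon, which is the point after which a 3′ untranslated region follows in an mRNA. After Atp6v0c-ps2, a copy of the proton pump subunit gene Atp6v0c, the locus at chr6:37806550-37807089 on the plus strand was 540 bases long and the parent transcript had 541 bases left after the match. After Eif4a-ps4, a copy of the RNA helicase gene Eif4a1, the model was 543 bases long and the parent had 540 bases left. After Pgk1-rs7, a copy of the glycolytic gene Pgk1, these lengths were 415 and 418 bases. After Gm9836, a copy of the modifier gene Sumo2, they were 602 and 605 bases. In these 4 the lengths differed by at most 3 bases. In the other 2 they did not match: 665 against 0 bases for Gm11847 and Hnrnpa3, an RNA-binding protein gene whose chosen transcript ends at its stop codon, and 509 against 2035 bases for Gm13577 and Hmgb1, a chromatin protein gene.

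The locus after Atp6v0c-ps2 had 14 reads in replicate 1 and 17 in replicate 2, and the pseudogene itself had 70 and 74. Atp6v0c, the parent, had 2320 and 2393. The locus after Eif4a-ps4 had 9 and 8 reads, against 6 and 8 on the pseudogene and 288 and 332 on Eif4a1. A model on the opposite strand of this locus, with both ends within 10 bases of its own, had 41 and 36 reads, more than the locus. The locus after Pgk1-rs7 had 9 and 5 reads, against 4 and 9 on the pseudogene and 923 and 1143 on Pgk1. The first locus had fewer reads than the copy before it in each library, and the other 2 had counts on both sides of it or about equal. All 3 had far fewer than the parents. The pseudogenes share from 84.0% to 100% of their 25-base words with the parent, so the assignment of reads between copy and parent is uncertain. How far reads of the parent were placed on the copy was not tested.

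The loci were weakly covered. The 210 loci held 1952 reads in replicate 1 (0.147% of the library, exact 95% interval 0.140 to 0.153%) and 1585 in replicate 2 (0.116%, 0.110 to 0.122%), a mean of 0.131% ± 0.0217 (SD, n = 2). That was 38.7% and 35.9% of all reads on unspliced intergenic loci. A locus had a median of 5 reads in replicate 1 (2 to 173) and 4 in replicate 2 (2 to 120). At these depths 1 read is worth 0.752 CPM (counts scaled to a library total of 1000000 reads) in replicate 1 and 0.732 in replicate 2. All intervals given here cover counting error only, since molecular identifiers are not described. The 10 loci of most reads held 27.5% of the reads.

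The loci were chosen by their reads in each library, so the counts and ratios are a description and carry no test. At the edge of the rule, 88 loci had 2 reads in the lower library, with 2 to 20 in the higher. Just outside it, 174 loci had 2 or more reads in 1 library, 2 to 18, and 1 read in the other. Loci lay on the plus strand in 133 cases and on the minus strand in 77. Chromosome 2 held 24, the highest number.

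**Figure D1:**
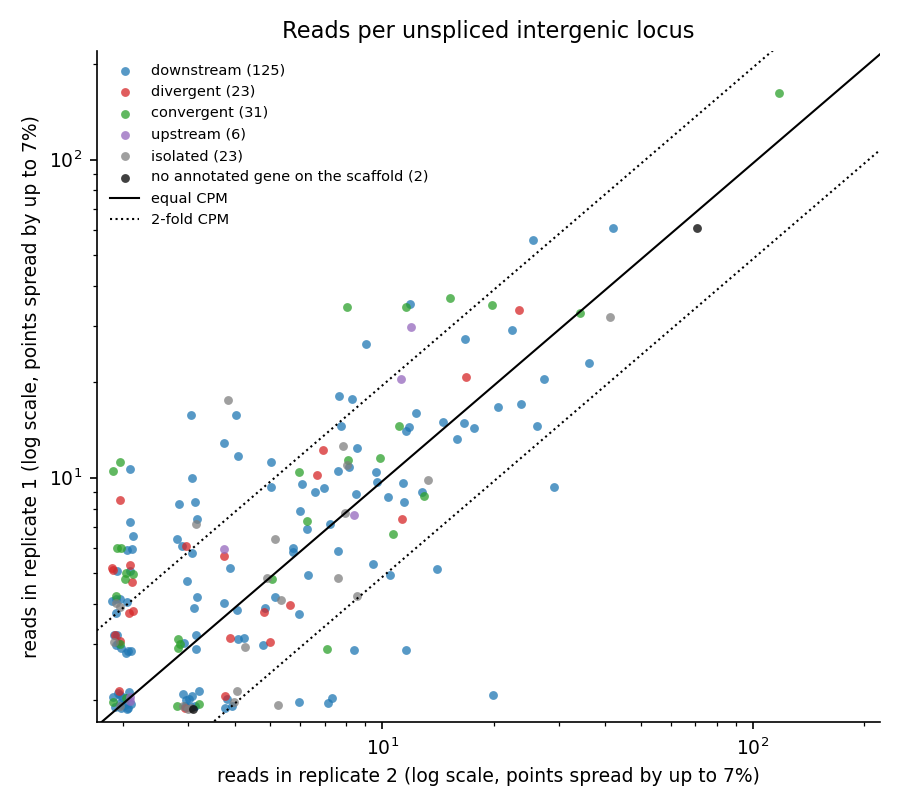
Reads of each of the 210 loci in replicate 1 (vertical) and replicate 2 (horizontal), log scales, coloured by position relative to annotated genes, with lines at equal CPM and at a 2-fold ratio. The locus at the end of Fgf12 stands highest, with 173 and 120 reads, and most loci have under 10 reads in each library.

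Most loci lay just behind genes. Positions were measured against GENCODE M21 in mm10, and a locus was put in the first class that applied within 5 kb: downstream of a gene on the same strand, divergent from the start of a gene on the opposite strand, convergent on the end of a gene on the opposite strand, upstream of a gene on the same strand, or isolated. Downstream loci numbered 125, or 59.5% (exact 95% interval 52.6 to 66.2%). There were 31 convergent, 23 divergent, 6 upstream and 23 isolated loci, and 2 lay on scaffolds without an annotated gene. Of 671 unspliced intergenic loci with 2 reads in 1 library and no such match in the other, 47.1% (43.3 to 51.0%) were downstream. Of 1078 unspliced antisense loci matched by the same rule, 22.8% (20.3 to 25.4%) were downstream. The intervals treat loci as independent, and no test was run on the differences. Neither of these sets is a matched background. The 671 loci were set apart by the read rule itself, so read depth differs along with position. Antisense loci lie opposite an annotated gene by definition, and a gene that overlaps a locus by more than 1 base was not counted. The shares are therefore a description only.

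**Figure D2:**
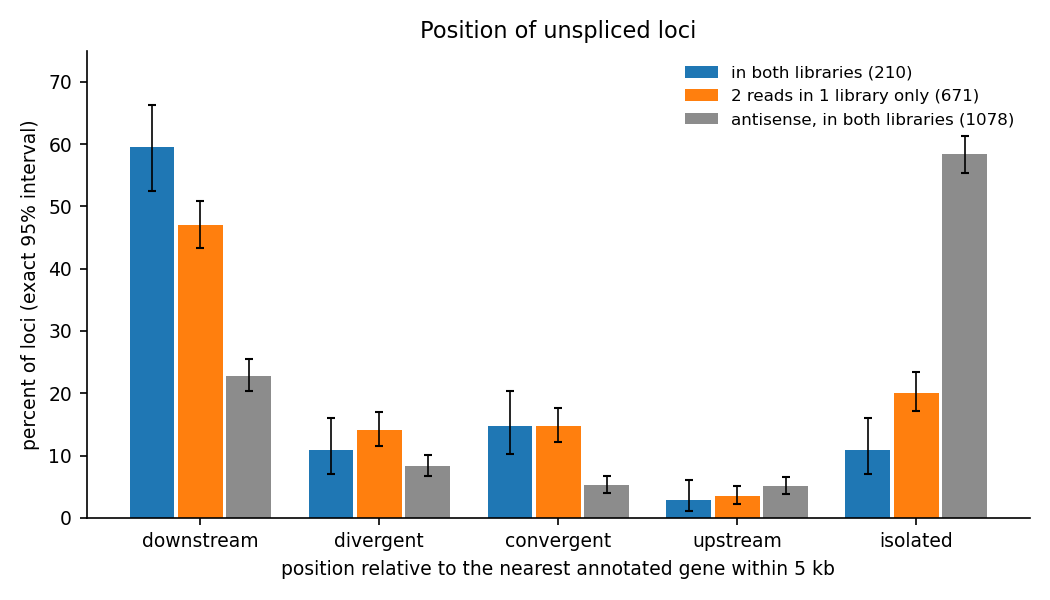
Percent of loci in each position class, with exact 95% binomial intervals as bars, for the 210 loci in both libraries, 671 loci with 2 reads in 1 library only and 1078 antisense loci in both libraries. The downstream class holds 59.5%, 47.1% and 22.8% of the 3 sets, and the isolated class holds 11.0%, 20.1% and 58.3%. A gene that overlaps a locus by more than 1 base is not counted, so antisense loci called isolated can lie over a gene.

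The 125 downstream loci followed 125 different genes, of which 104 were protein-coding and 14 pseudogenes. Their start lay a median of 1019 bases after the annotated end, and 62 lay within 1 kb. In 39 the first base was the last annotated base of the gene. The other 86 began 209 to 4728 bases after the gene, with a median of 1694.5. The farthest downstream locus thus stood at 4728 bases, and the nearest isolated locus stood 5284 bases from any GENCODE gene.

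**Figure D3:**
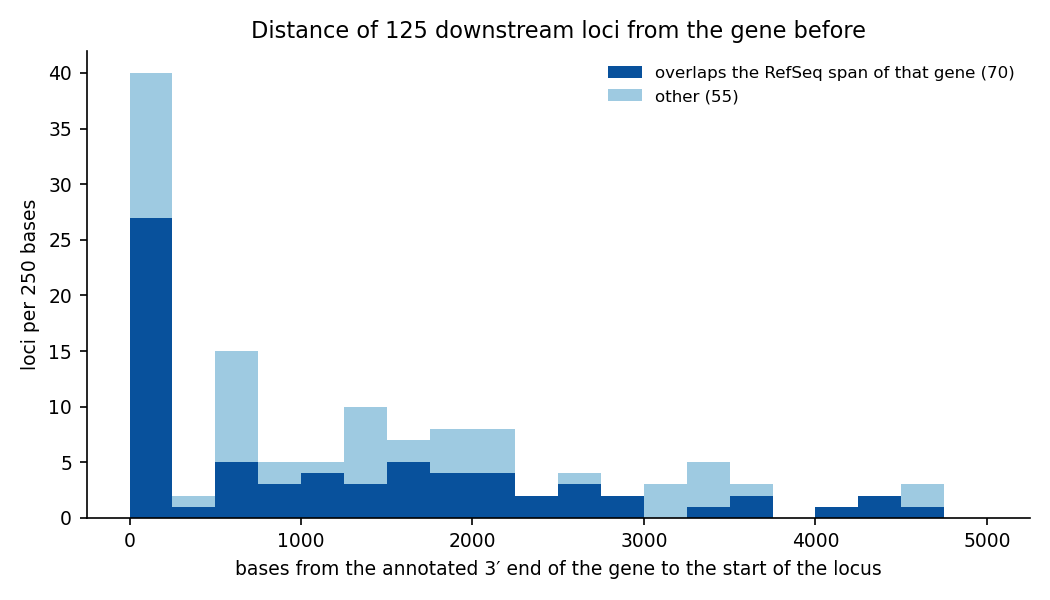
Number of downstream loci per 250 bases of distance between the annotated 3′ end of the gene before and the start of the locus, with the loci that overlap that gene's span in RefSeq in the dark shade. There are 39 loci at distance 0, and 70 of the 125 overlap the RefSeq span.

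The gene models of RefSeq on the same assembly, GRCm38.p6, reached many of these loci. There were 78 loci (37.1%, 30.6 to 44.1%) that overlapped the RefSeq span of the same-strand gene before them, 70 of them in the downstream class, and 64 lay wholly inside it. In 30 of the 78 the 3′ end of the locus stood within 10 bases of the RefSeq gene end, and in 39 within 100 bases. The RefSeq gene ran on past the locus by over 100 bases in 30, and the locus ran on past it by over 100 bases in 9. Among the loci with 2 reads in 1 library only, 23.1% (20.0 to 26.5%) overlapped the RefSeq span of the gene before. A further 87 loci (41.4%) met no RefSeq gene, 28 overlapped a RefSeq gene on the opposite strand alone, 13 another gene on the same strand, and 2 a gene whose strand the tables do not give.

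Slc24a4, which encodes a potassium-dependent sodium-calcium exchanger, was followed by the downstream locus of most reads, at chr12:102270391-102272184 on the plus strand. It had 62 reads in replicate 1 and 42 in replicate 2, or 38.7 ± 11.2 CPM (SD, n = 2), and began 3300 bases after the gene. Slc24a4 itself had 12 and 18 reads, fewer than the locus in each library. The opposite strand of the stretch had 86 and 47 reads on unannotated models, more than the strand of the locus. This locus met no RefSeq gene.

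Behind Kcna1, which encodes a voltage-gated potassium channel subunit, 59 and 24 reads lay at chr6:126636466-126638462 on the minus strand. The gene had 44 and 42 reads. The locus began 1935 bases after the annotated end and its 3′ end stood 3 bases from the end of Kcna1 in RefSeq. Its ratio of CPM, replicate 1 over replicate 2, was 2.53 (1.55 to 4.24). The opposite strand of this stretch had 11 and 13 reads.

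The locus 1681 bases behind Lrrc7, which encodes a postsynaptic density protein, had 21 and 28 reads, against 36 and 37 on the gene. It lay inside RefSeq Lrrc7, which runs on for 9960 bases past the locus. The locus 1469 bases behind Cacng8, an auxiliary subunit of AMPA-type glutamate receptors, had 36 and 12 reads, against 4 and 0 on the gene. Gabrb2, a subunit of the GABA-A receptor, was followed at 2555 bases by a locus of 5 and 14 reads, whose end stood 20 bases from the RefSeq gene end. Reads were thus more numerous on the locus than on the gene behind Cacng8, and fewer on the locus than on the gene behind Lrrc7.

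Slit1, an axon guidance ligand, was followed at 714 bases by a locus of 14 and 26 reads that ended 4 bases past the RefSeq end. The kinase gene Stk24 was followed at 653 bases by a locus of 9 and 28 reads that ended on the RefSeq end itself. From the last base of Cmip a locus of 27 and 16 reads ran on, against 183 and 188 reads on the gene. From the last base of Pura, which encodes a nucleic-acid-binding protein, a locus of 16 and 24 reads ran on, against 54 and 39 on the gene. The Cmip locus lay inside the RefSeq gene, and the Pura locus met no RefSeq gene. The tight junction gene Marveld2 was followed at 1910 bases by a locus of 24 and 38 reads that met no RefSeq gene, against 3 and 0 reads on the gene. The locus from the last base of the pseudogene Gm19196 had 30 and 21 reads, against 22 and 21 on the pseudogene and 28 and 21 on the opposite strand of the locus.

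Across the 125 downstream loci the reads of the locus showed no clear relation to those of the gene. Pearson's r between log2 locus reads and log2 of gene reads plus 1 was -0.02, and Spearman's rho was -0.05, over 125 loci that share the same libraries and a minimum of reads, as a description. The gene before had reads in both libraries for 108 loci, in 1 library for 6 and in none for 11. There were 40 loci with more reads than the gene before. The genes before that had reads, 113 and 109 in the 2 libraries, had medians of 13.5 and 14.6 CPM, against 11.3 and 11.7 CPM over all annotated genes with reads. Models of the gene before that carried reads also crossed into the locus in 23 of the 125.

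Convergent loci included the locus of most reads. At chr16:28156137-28160098, on the plus strand, 173 reads in replicate 1 and 120 in replicate 2 gave 109 ± 29.9 CPM (SD, n = 2) and a CPM ratio of 1.48 (1.17 to 1.88). The locus ended on the annotated 3′ end of Fgf12, which encodes an intracellular fibroblast growth factor homologue that binds sodium channels and which lies on the minus strand. The opposite strand of the same stretch held 189 and 113 reads on unannotated models, so each strand had about the same number in each library. In RefSeq the stretch overlaps Fgf12.

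The next convergent locus, chr13:51423385-51425524 on the minus strand with 35 and 33 reads, lay 588 bases from the end of the sphingosine-1-phosphate receptor gene S1pr3. It also overlapped RefSeq Shc3, an adaptor protein gene on its own strand whose GENCODE end is 5517 bases away, and it ended 4 bases past the RefSeq end of Shc3. The convergent locus at chr11:50119209-50125711 on the plus strand, with 37 and 21 reads, lay inside RefSeq Rnf130, a ubiquitin ligase gene, and 22 and 13 reads of annotated Rnf130 crossed into it. Its GENCODE gene end is 14451 bases away. Class names therefore depend on the annotation for these 2 loci, since both overlap a gene on their own strand in RefSeq.

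Convergent loci near Atg2b, an autophagy gene, and Gins4, a DNA replication gene, had 38 and 16 reads and 34 and 12 reads. The locus near the kinase gene Hipk2, at chr6:38689105-38691584 on the plus strand, had 33 and 8 reads, while its opposite strand had 1 and 23. The strand with more reads thus differed between the libraries at this locus.

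Divergent loci had 158 reads in replicate 1 and 120 in replicate 2, over 23 loci. The highest, chr11:33150279-33151288 on the plus strand, had 32 and 23 reads and began 2879 bases from the start of Fgf18, which encodes a secreted growth factor. It ended nearer to another opposite-strand gene, 999 bases from the end of Npm1, and is called divergent because that class comes first. The locus at Tbc1d22a, a gene of the TBC family of Rab regulators, lay at chr15:86212657-86214459 on the minus strand with 21 and 18 reads. It began on the first annotated base of Tbc1d22a and ended on the first annotated base of the snRNA gene Gm22818. Both of its ends were identical in the libraries. Whether such ends follow the reads or the annotation was not tested. In 13 of the 23 divergent loci the first base was the first annotated base of the gene. The locus 633 bases from the start of Phip had 13 and 7 reads.

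Upstream loci had 28 and 12 reads before Gm16216, 20 and 12 before the deubiquitinase gene Otud4 and 8 and 8 before the Wnt receptor gene Fzd7. Among isolated loci, chr15:86194772-86195324 on the plus strand had 30 and 42 reads, or 26.6 ± 5.79 CPM, and met no RefSeq gene. The isolated locus at chr9:114970147-114970956 had 10 and 13 reads. Another isolated locus, at chr2:107306501-107308225, with 18 and 4 reads, lay 7999 bases behind the potassium channel gene Kcna4 and inside its RefSeq span. On the unplaced scaffold GL456382 a locus of 58 and 66 reads held 46.0 ± 3.33 CPM, the second highest level of all. No annotated gene lies on that scaffold, so it could not be placed against one. The 23 isolated loci lay 5284 to 69940 bases from the nearest GENCODE gene. In RefSeq, 6 of them overlapped the gene before them, 2 another gene on the same strand and 2 a gene on the opposite strand.

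Reads on the opposite strand were common. At 87 loci (41.4%, 34.7 to 48.4%) unannotated or annotated models with reads lay on the other strand over at least 2 of the same bases, compared with 32.6% (29.1 to 36.3%) of the loci with 2 reads in 1 library only and 90.8% (88.9 to 92.5%) of the antisense loci, which by definition lie opposite an annotated gene. Over the 87 loci a median of 62.5% of the reads of both strands were on the strand of the locus (5.83 to 95.7%). At 30 loci the opposite strand had more. A model on the opposite strand with both ends within 10 bases of those of the locus was present at 37 loci in replicate 1 and at 29 in replicate 2, and at 25 in both. Examples are the locus between Fgf18 and Npm1, with 30 and 27 reads on such models, and the Atg2b locus, with 39 and 31. Whether the preparation kept strand is not given in the sources used here, and an unspliced read carries no splice site that shows its strand. Reads of 1 molecule placed on either strand and transcription of both strands cannot be told apart here.

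Ratios between the libraries were often wide at these loci, for which the read minimum bears on both counts. Of the 101 loci with at least 10 reads over both libraries, 30 had a CPM ratio of 2 or more, which is 29.7% (21.02 to 39.6%). The background was 8.94% of 11891 annotated genes with as many reads and 39.9% of 677 antisense loci. It was 9.72% of 10090 annotated genes under the same rule of 2 reads in each library and no more reads than the highest locus. Neither set of genes was matched to the loci in read depth, which bears on such ratios, so the shares are a description only. The ratio was 2 or more towards replicate 1 in 24 loci (23.8%) and towards replicate 2 in 6 (5.94%). By direction the background was 5.05% and 3.89% of annotated genes, 5.43% and 4.29% of annotated genes under the same rule, and 38.1% and 1.77% of antisense loci. The exact interval of the ratio left out 1 on the side of replicate 1 for 17 of the 210 loci and on the side of replicate 2 for 3. That count was not made for annotated genes or antisense loci, so it has no background and is a description only.

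Ratios were also set out by reads on the other strand, a split made after the data had been seen and not tested. Among the 51 loci with opposite-strand reads and at least 10 reads of their own, 22 passed the 2-fold ratio (43.1%, 29.3 to 57.8%), 16 towards replicate 1 and 6 towards replicate 2. Among the 50 without, 8 did (16%, 7.17 to 29.1%), all towards replicate 1. Loci with opposite-strand reads had sums of 818 and 565.0 CPM, a ratio of 1.45 (1.32 to 1.59). Loci without summed to 649.5 and 595.1 CPM, a ratio of 1.09 (0.991 to 1.20). Over the whole libraries, unspliced antisense models held 5.08% of reads in replicate 1 and 2.86% in replicate 2. Their part in the ratios of the loci was not tested.

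The ratio was highest, among the 49 loci with 20 or more reads, behind Kcna4 (18 and 4 reads, 4.62, 1.52 to 18.8). It was 4.24 (1.92 to 10.6) near Hipk2, 4.11 (1.33 to 16.9) behind the pseudogene Gm18562 with 16 and 4 reads, 3.08 (1.57 to 6.505) behind Cacng8 and 2.97 (1.35 to 7.20) behind Bivm with 26 and 9 reads. At the low end, the locus 431 bases behind Tmem178 had 2 and 20 reads, a ratio of 0.103 (0.0116 to 0.423), and the gene had 128 and 209. The locus behind Stk24 had 0.330 (0.137 to 0.720), that behind Slit1 0.553 (0.267 to 1.10), that behind Marveld2 0.649 (0.372 to 1.11) and that behind Pura 0.685 (0.340 to 1.34). The intervals of Slit1, Marveld2 and Pura include 1. The 5 loci of highest ratio also had reads on the opposite strand. These were 21 and 19 behind Kcna4, 1 and 23 near Hipk2, 10 and 4 behind Gm18562, 10 and 12 behind Cacng8 and 10 and 14 behind Bivm. At the low end they were 1 and 0 behind Tmem178, 2 and 0 behind Stk24 and none behind Slit1, Marveld2 and Pura. How far the placement of reads on a strand bears on these ratios was not tested.

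The tissue was checked against markers of neurons, glia and neighbouring tissues. Pan-neuronal genes summed to 5022 and 6215 CPM in the replicates 1 and 2 over 5 of 5 genes, and dentate gyrus granule cell genes to 628 and 763 CPM over 4 of 4. The 6 choroid plexus genes had a sum of 13925 CPM in replicate 1, with none at 0, against 316 CPM in replicate 2, with 1 of the 6 at 0. The 3 meninges genes summed to 1195 and 2855 CPM. None of the marker genes stood before a downstream locus. The part of these tissues in the ratios was not tested, and in bulk tissue fewer cells of a type and less RNA per cell cannot be told apart.

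The ends of the loci were compared between the libraries. The 3′ end of the most-read model differed by a median of 3 bases (0 to 2922), was within 10 bases at 134 loci (63.8%, 56.9 to 70.3%) and was identical at 50. Antisense loci had a median of 1 base and 64.6% (61.6 to 67.4%) within 10 bases. The 5′ end differed by a median of 70.5 bases, was within 10 bases at 96 loci and identical at 71. There were 63 loci that share 1 base with an annotated gene, and no locus overlaps a gene by more. Among these 63, 44 had 5′ ends and 37 had 3′ ends within 10 bases. Among the 147 that share none, the median difference was 3 bases at the 3′ end and 146 bases at the 5′ end, and 66.0% (57.7 to 73.6%) and 35.4% (27.7 to 43.7%) were within 10 bases. Convergent loci had a 3′ end within 10 bases in 26 of 31, and downstream loci in 71 of 125. In 7 of the 31 convergent loci the last base was the last annotated base of the gene. Whether ends that share a base with a gene follow the reads or the annotation was not tested.

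**Figure D4:**
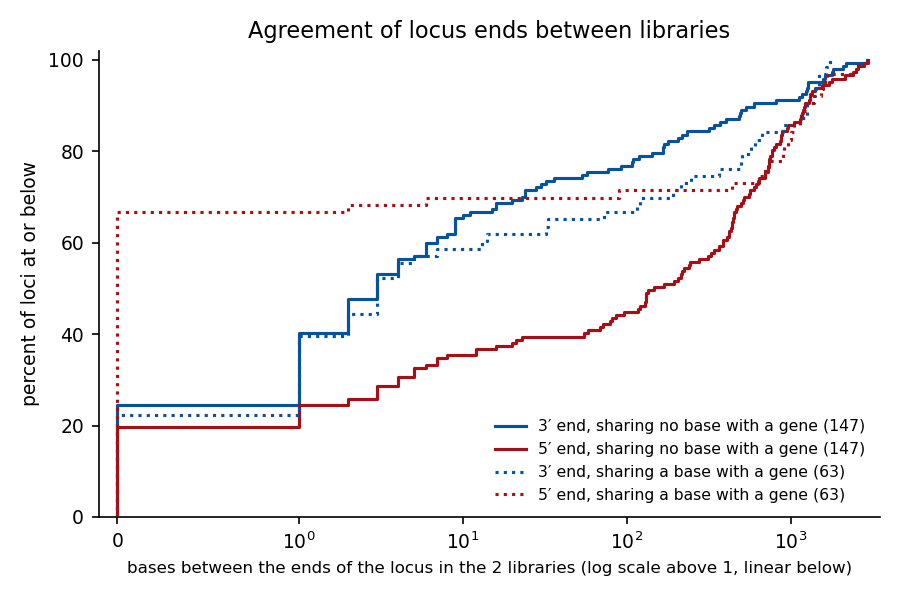
Cumulative percent of loci by the distance in bases between their ends in replicate 1 and replicate 2, for 3′ ends and 5′ ends, with solid lines for the 147 loci that share no base with an annotated gene and dotted lines for the 63 that do. Among the 147, 66.0% of 3′ ends and 35.4% of 5′ ends lie within 10 bases.

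The most-read model of a locus had a median length of 1594 bases (323 to 5485). The medians were 1468 bases in replicate 1 and 1385 in replicate 2 alone. Loci with 2 reads in 1 library only had a median of 1315 bases, and antisense loci 1291. Downstream loci had a median of 1605 bases and divergent loci 1276.

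Some loci stood beside each other. There were 10 loci with another of the 210 within 5 kb. The Gabrb2 end had a pair, with 5 and 14 reads on the strand of the gene and 15 and 11 on the other. Behind Sstr4, a somatostatin receptor gene, a pair on the strand of the gene had 14 and 16 reads and 3 and 3 reads. More widely spaced, 4 loci lay behind the annotated end of Kcna4, each over 5 kb from the next: those at chr2:107306501-107308225 and chr2:107322907-107326786 on the plus strand and chr2:107315312-107317088 on the minus strand lay within RefSeq Kcna4, and chr2:107368442-107371278 on the minus strand lay beyond it. They had 18 and 4, 3 and 4, 2 and 5, and 2 and 4 reads.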

How the data were processed

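Long-read RNA sequencing was deposited for 2 libraries. The deposited tables hold raw counts of reads per transcript model, with no normalization by the authors. Per the file headers, models were made with TALON, and per the labels the build was mm10 with GENCODE M21. Aligner and strand setting: not given in the sources used here. Both deposited files also list each model's number of exons, length and coordinates, which are other values and not read counts. Models of 1 locus were summed, and loci that overlap by at least 1 base on the same strand were joined. CPM used all reads of a library. Shares have exact Clopper-Pearson 95% intervals, and ratios the exact conditional interval. Python 3.11.15, pandas 2.3.3, scipy 1.17.1 and matplotlib 3.10.9 were used, with edgeR 4.0.16 and DESeq2 1.42.0 for size factors alone. Code was tested on simulated data. The loci and lists were chosen with earlier results of these data known. Named loci were the 20 of highest mean CPM, the 3 highest per class, and the 5 highest and 5 lowest ratios among those with 20 or more reads. RefSeq tables of GRCm38.p6 gave gene spans and start windows. Poly(A) signals, A-rich stretches and copies of transcripts at the loci were not analysed here, because no genome was used. The RefSeq start windows overlap their loci, and their GC content, CG dinucleotides and motifs were described. Without a second condition, no test between groups was made.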

Additional observations from a re-analysis of the deposited data

How the results depend on the processing

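The number of shared loci, 210, was 560 with 1 read needed and 76 with 5 reads needed in each library, 170 with an overlap of at least 50% of each locus and 214 with loci joined first. Asking for 2 reads in 1 library alone gave 529 to 583 loci. The downstream share of 59.5% was 29.5% at 1 kb, 67.1% at 10 kb and 50% with protein-coding genes only. It was 60.3% among loci with 5 reads in each library, 53.3% with gene ends from the deposited annotations and 56.5% among loci that share no base with a gene. The share past 2-fold, 29.7%, was unchanged with CPM over nuclear genes, edgeR TMM sizes and DESeq2 size factors, and was 30% without a minimum. It was 16% among loci without opposite-strand reads, an alternative chosen after seeing the data, as was leaving out loci that share a base with a gene. The median length of 1594 bases was 1452 over all models of a locus and 1385 to 1468 with 1 library left out. The median 3′ end distance was 2 to 3 bases under every alternative tried. The alternatives on poly(A) signals and A-rich stretches were not run, because no genome was used. No paired analysis was possible because there is 1 group. With a median of 5 and 4 reads per locus, single ratios rest on few reads, and loci with 1 read in a library are missed by the rule.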
